A study of Homo sapiens with 6 samples.

Results

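Secreted antimicrobial and antiprotease genes of epithelia were examined in the human breast cancer line MDA-MB-231, with and without a hairpin against GPR81. The set holds 7 of the 26255 gene symbols in the table: the beta-defensin DEFB1, the cathelicidin CAMP, the WAP domain genes SLPI, PI3 and WFDC2, and the iron and siderophore binding proteins LTF and LCN2. The set was named around DEFB1 and was chosen by its fall in the same comparison as the one described below, so the fold changes of the 7 genes are given as a description without a test.

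Lentiviral particles delivered the short hairpins, and cells that carried one were selected with puromycin. The shNT cells received the control hairpin, the shGPR81 cells received a hairpin against GPR81, the lactate receptor encoded by HCAR1, and each group has 3 libraries. The study describes more than 1 hairpin against GPR81, and which of them the sequenced cells carried is not given in the sources used here. Nothing in the labels says that the 3 libraries of a group come from separate cultures, so the p-values below measure the spread between these libraries, which may be technical.

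Defensins and cathelicidins are small cationic peptides that damage microbial membranes, and DEFB1 is known as the beta-defensin that many epithelia make without induction. WAP domain proteins are small secreted proteins with a fold held by disulfide bonds, and several of them block serine proteases such as neutrophil elastase at mucosal surfaces. Lactoferrin and lipocalin-2 withhold iron from bacteria, the first by binding iron itself and the second by binding the siderophores that carry it.

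HCAR1, the target of the hairpin, was at 0.968, 1.02 and 1.36 FPKM in shNT and at 0.978, 0.891 and 0.396 FPKM in the libraries labelled shGPR81. FPKM is a level per transcript length and library size. The groups overlapped, and the log2 fold change was -0.57 (SE 0.31, limma adjusted p = 0.38). By RT-qPCR and western blotting, which are other measures than these libraries, the paper reports significantly lower GPR81 in its shGPR81 lines than in shNT. The smallest whole read numbers that give the HCAR1 levels are 37, 40 and 52 in shNT and 40, 36 and 16 in shGPR81. Whether a step of HCAR1 holds more than 1 read was not checked. With these numbers the depth-corrected read ratio was 0.677. Its 95% Clopper-Pearson interval, from 0.513 to 0.892, covers counting error only. Total read numbers are not given with the values, and the relative depths recovered from low values were between 1 and 1.07 over the 6 libraries.

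All 7 genes were weakly expressed or listed at 0. Of the 17799 symbols above 0 in any library, the median of the mean FPKM over the 6 libraries was 4.59, and the highest of the 7 genes, WFDC2, stood at the percentile 33.0 of these means. DEFB1 stood at the percentile 31.9 and SLPI at 20.1. In shNT the levels of DEFB1 and WFDC2 overlapped, WFDC2 was above SLPI in every library, and SLPI overlapped with PI3. CAMP and LCN2 were listed at 0 in all 6 libraries. In total 3 of the 7 genes, DEFB1, WFDC2 and SLPI, passed the filter on low values (0.1 FPKM or more in at least 3 libraries) and 4 did not.

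**Figure D1:**
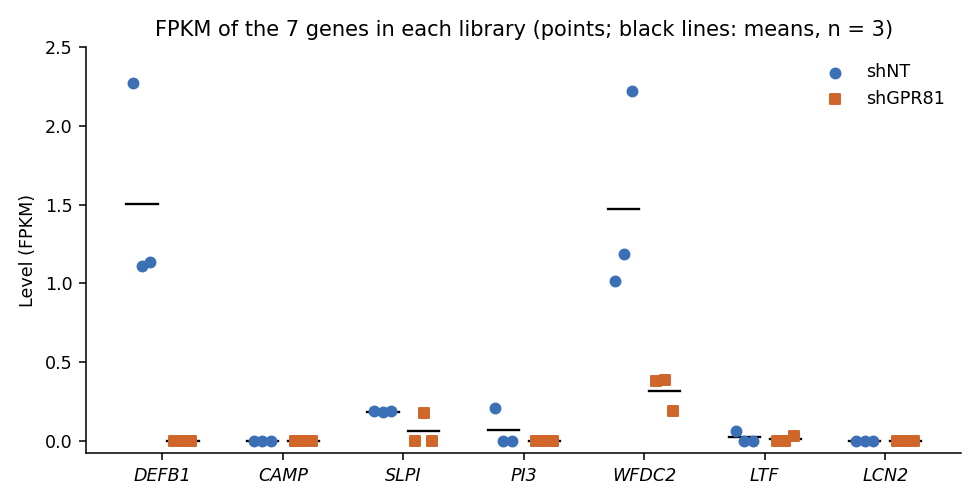
Level of each of the 7 genes in FPKM (vertical axis, linear) in the 3 shNT libraries (circles) and the 3 shGPR81 libraries (squares), with the group mean as a black line. DEFB1 lay between 1.11 and 2.27 FPKM in shNT and was listed at 0 in shGPR81, WFDC2 was lower in all 3 shGPR81 libraries, and the other 5 genes stayed at 0.210 FPKM or below.

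DEFB1 was detected in every shNT library and in none of the shGPR81 libraries. It was at 2.27 FPKM in shNT 1, 1.11 FPKM in shNT 2 and 1.14 FPKM in shNT 3, and it was listed at 0 in shGPR81 1, 2 and 3. The 3 shNT values were all above the shGPR81 values, and shNT 1 was well above the other shNT libraries. The mean was 1.51 ± 0.665 FPKM (SD, n = 3) in shNT. The fitted log2 fold change of FPKM + 0.1 was -3.93 (SE 0.31), the fifth lowest of the 14349 tested genes, and its size depends on the constant that was added. DEFB1 passed the filter only through its shNT values. With bulk RNA, fewer cells that express a gene and less RNA per cell cannot be told apart.

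The shNT values of DEFB1 rest on few reads. They stand in a ratio of 2 to 1 to 1, so the smallest whole numbers that give them are 2, 1 and 1 reads, 4 reads in all against 0 in shGPR81. For other short genes the FPKM of 1 read falls with transcript length, and a line through 19 genes that GENCODE lists as protein coding, with 1 annotated transcript of 300 to 1000 bases, gives 0.436 FPKM per read for the 375 bases of DEFB1. At that rate 1 step of DEFB1, 1.14 FPKM, is worth 2.61 reads, so 2 or 3 reads per step lie nearest, which gives 8 or 12 shNT reads against 0. The shortest of the 19 genes has 492 bases, so the value for DEFB1 lies outside their range, and 15 of them lie within 20% of the line. Taking 3 reads over the group as the most that a count of 0 allows, DEFB1 was at least 1.40-fold lower in shGPR81 with 1 read per step, at least 2.81-fold lower with 2 and at least 4.21-fold lower with 3. This floor leaves out the counting error of the shNT reads. With that error included, the upper end of the 95% Clopper-Pearson interval of the depth-corrected ratio was 1.44 with 1 read per step, which includes no change, 0.556 with 2 and 0.342 with 3. DEFB1 was chosen by its fall, so these bounds describe its reads and are not a test of the fall.

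**Figure D2:**
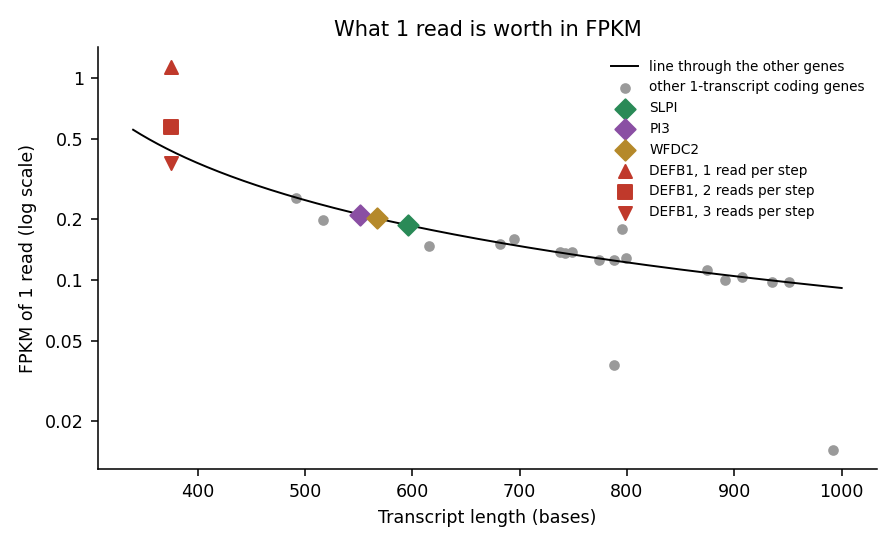
FPKM of 1 read (vertical axis, log scale) against transcript length in bases for 19 other short genes (grey), the line through them, and SLPI, PI3, WFDC2 and DEFB1. SLPI, PI3 and WFDC2 lie on the line at 1 read per step, while DEFB1 at 1.14 FPKM lies above it with 1 read per step and nearest to it with 2 or 3.

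DEFB1 has 2 exons and occupies bases 6728114 to 6735458 of chromosome 8 (GRCh37), on the minus strand. Of its 301 stretches of 75 bases, the read length, 0 occur in transcripts of other genes. The only annotated gene that overlaps it, GS1-24F4.2 on the opposite strand, was at 0.0806 FPKM in shNT 3 and listed at 0 in the other libraries. The library kit marks strand, and whether the authors' quantification used it is not given in the sources used here. Within 1000 kb of DEFB1 2 genes were tested, with log2 fold changes of -0.05 and -0.03. The nearer one, AGPAT5, an acyltransferase of phospholipid synthesis, lies 109 kb away and was at -0.05 (SE 0.07). The median over the 267 genes of chromosome 8 whose mean reached 5 FPKM was 0.01. CLDN23, a claudin and the nearest tested gene on the other side at a distance of 1824 kb, fell from 0.743 to 0.300 FPKM, with a log2 fold change of -1.05 (SE 0.23, limma adjusted p = 0.0473). The call of CLDN23 did not hold in 12 of 14 alternatives.

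The other defensins were not detected: of a list of 38 alpha-defensins and beta-defensins, 35 are in the table and all 35 were listed at 0 in all 6 libraries. The cathelicidin CAMP, the precursor of the peptide LL-37, was also listed at 0 throughout. CAMP lies on chromosome 3 from 48264837 to 48266981 on the plus strand and has 4 exons. With DEFB1 at 0 as well, all listed defensins and the cathelicidin were listed at 0 in the shGPR81 libraries.

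Genes were also ranked by how like that of DEFB1 their pattern over the 6 libraries was, so a fall in shGPR81 is part of the choice. Likeness was the root mean square difference of log2 values, each relative to the gene's own shNT mean, among the 11677 genes whose mean over the libraries reached 1 FPKM. The nearest was TFF1, a secreted trefoil peptide of mucosae, with a difference of 0.441 and levels of 7.35 ± 1.23 FPKM (SD, n = 3) in shNT and 0.401 ± 0.141 FPKM in shGPR81. EEF1A2, a translation elongation factor, followed at 0.474, then NLRP2, an NLR family gene, at 0.610 and MAGED1, a MAGE family gene, at 0.610. These 4 genes had higher shNT levels than DEFB1, between 3.88 and 18.8 FPKM on average.

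WFDC2, which encodes the WAP domain protein also known as HE4, was detected in every library and was lower in shGPR81. It was at 1.01, 1.19 and 2.23 FPKM in shNT 1, 2 and 3 and at 0.378, 0.383 and 0.191 FPKM in shGPR81 1, 2 and 3. The groups did not overlap, shNT 3 was the highest and shGPR81 3 the lowest. The means were 1.47 ± 0.656 FPKM in shNT and 0.318 ± 0.109 FPKM in shGPR81 (SD, n = 3 each), and the log2 fold change was -1.88 (SE 0.33). They rest on 5, 6 and 11 shNT reads and 2, 2 and 1 shGPR81 reads. With 22 reads against 5, the depth-corrected ratio was 0.216 (95% Clopper-Pearson interval from 0.0639 to 0.584). For WFDC2 the line of FPKM per read gives 0.202 FPKM, the same as the step in its values.

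SLPI, the secretory leukocyte protease inhibitor, stood at the level of 1 read per library. It was at 0.187, 0.182 and 0.187 FPKM in shNT 1, 2 and 3, which is 1 read each, and at 0, 0.177 and 0 FPKM in shGPR81 1, 2 and 3, where the value of shGPR81 2 is again 1 read. The groups did not overlap only because 1 read is worth less in the deeper library shGPR81 2. With 3 reads against 1 both groups are at or under the floor of 3 reads, so no fold is given. PI3, the elastase inhibitor elafin, was at 0.210 FPKM in shNT 1, also 1 read, and listed at 0 in the other 5 libraries. At this depth no difference in SLPI or PI3 was detectable.

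LTF, which encodes lactoferrin, was at 0.0630 FPKM in shNT 1, at 0.0298 FPKM in shGPR81 3 and listed at 0 in the other 4 libraries. LCN2, which encodes lipocalin-2, was listed at 0 in all 6. LTF lies on chromosome 3 from 46477136 to 46526724 on the minus strand and has 17 exons. LCN2 lies on chromosome 9 from 130911350 to 130915732 on the plus strand and has 7 exons.

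Among the 7 genes, 2 (DEFB1 and WFDC2) were lower past both thresholds, which were a 1.5-fold change and a limma adjusted p below 0.05, and 0 were higher. Over all 14349 tested genes 1.59% were lower and 0.955% higher past both thresholds. Since the set was chosen by this contrast, nothing is read from its count. All 3 tested genes had groups without overlap on the lower side, as did 12.7% of all tested genes. DEFB1 would miss the filter without any 1 of the shNT libraries, so the fits that leave out a library kept the genes that passed on all 6. WFDC2 was not called when each chromosome was centred on its own median, with limma's treat, with the replicate block, or when shNT 2, shGPR81 1, shGPR81 2 or shGPR81 3 was left out.

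The 3 WAP domain genes lie on the long arm of chromosome 20, which holds most human WAP domain genes. PI3 lies from 43803543 to 43805185 on the plus strand, SLPI from 43880880 to 43883205 on the minus strand and WFDC2 from 44098393 to 44110172 on the plus strand, with 3, 4 and 4 exons. The whole chromosome was lower in the libraries labelled shGPR81. Over the 253 of its genes whose mean reached 5 FPKM the median log2 fold change was -0.40, with 243 of them below 0. Relative to the mean of shNT, the medians of the 3 shGPR81 libraries were -0.41, -0.40 and -0.39, against -0.06 to 0.04 in the shNT libraries. Chromosome 9, with LCN2, had a median of 0.09 over 327 genes, and chromosome 3, with LTF and CAMP, a median of -0.02 over 455 genes.

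Within 1000 kb of SLPI 32 genes were tested, 27 were below 0 and their median log2 fold change was -0.32. Of these 32, TTPAL, CD40 and WFDC2 were lower past both thresholds and SPATA25 was higher. The calls of TTPAL and CD40 were lost when each chromosome was centred on its median, with a pseudocount of 1 and with treat, and that of CD40 also without shGPR81 1. That of SPATA25 was lost with either other pseudocount, with treat, with the replicate block and when any library other than shNT 1 was left out. The nearest tested neighbours of SLPI, the kinase gene STK4 at -0.31 (SE 0.08) and the syndecan gene SDC4 at -0.29 (SE 0.06), lay near the chromosome median. PIGT, a subunit of the GPI transamidase 12.8 kb from WFDC2, was at -0.30 (SE 0.12). WFDC2 stood below these neighbours, and after each chromosome was centred its log2 fold change was -1.46. The part that the shift of chromosome 20 has in the fall of WFDC2 was not tested beyond this centring.

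**Figure D3:**
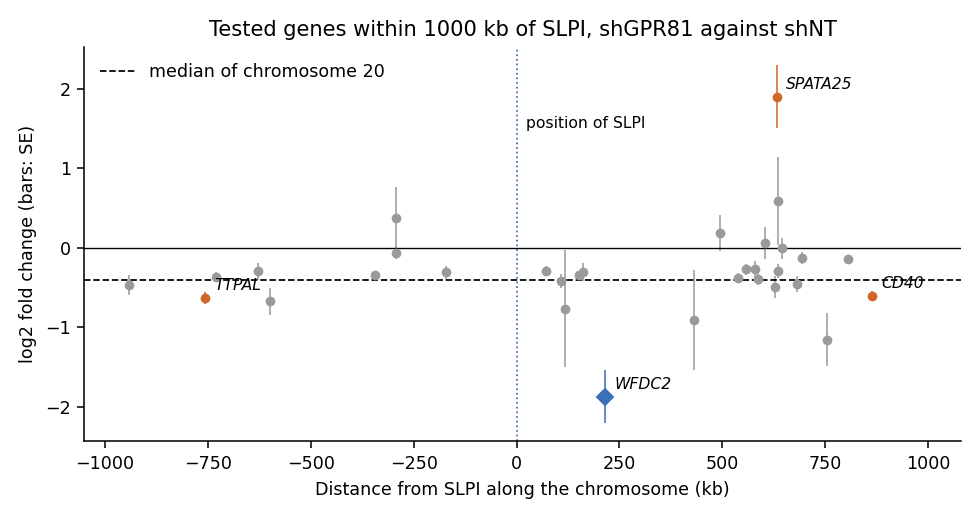
Log2 fold change of shGPR81 against shNT (vertical axis, bars SE) of the tested genes within 1000 kb of SLPI, by distance along chromosome 20 in kb. The blue diamond is WFDC2, the dotted line the position of SLPI, orange points the other genes past both thresholds and the dashed line the chromosome median of -0.40; 27 of the 32 neighbours lie below 0 and WFDC2 is the lowest at -1.88.

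The promoters are shown for WFDC2, the WAP domain gene with the most reads, and for LCN2, the gene at 0 whose known inducers act through NF-kB. Each is a window of 300 bases around the annotated start in RefSeq (GRCh38.p14), which held 4 of the 7 genes (WFDC2, LCN2, CAMP and LTF). Capitals mark GGGCGG on either strand, the GC box, in WFDC2 (chr20:45469503-45469802, plus strand). In LCN2 (chr9:128149203-128149502, plus strand) they mark an NF-kB motif and TGANTCA, in which N is any base.
WFDC2: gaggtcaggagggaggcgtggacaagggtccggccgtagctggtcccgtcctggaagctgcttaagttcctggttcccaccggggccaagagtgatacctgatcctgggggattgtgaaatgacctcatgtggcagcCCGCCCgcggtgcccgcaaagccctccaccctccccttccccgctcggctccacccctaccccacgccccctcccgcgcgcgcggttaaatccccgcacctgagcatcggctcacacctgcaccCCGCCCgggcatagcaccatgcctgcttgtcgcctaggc
LCN2: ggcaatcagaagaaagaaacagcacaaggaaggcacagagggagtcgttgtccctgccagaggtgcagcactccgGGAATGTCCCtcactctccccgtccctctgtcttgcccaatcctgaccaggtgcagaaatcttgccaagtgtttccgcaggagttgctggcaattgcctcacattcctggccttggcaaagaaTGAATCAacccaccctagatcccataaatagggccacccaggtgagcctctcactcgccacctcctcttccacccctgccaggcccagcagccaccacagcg
GGGCGG occurred at 2 places in the WFDC2 promoter, both on the minus strand, and in 45% of 35116 promoters of the same length. The NF-kB motif and TGANTCA occurred at 1 place each in the LCN2 promoter, and in 11.3% and 7.71% of all promoters. Neither promoter held the TATA box motif TATAAA (11.5% of all promoters) or TGACG, the core of the cAMP response element (24.6% of all), and the CAMP promoter held none of the motifs searched. A match is a description of the sequence and does not show a binding site.

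The other WAP domain genes did not move past the thresholds. Of 15 measured, 9 were listed at 0 in all libraries, 4 were tested and 0 were called. Over all tested genes 1.59% were lower and 0.955% higher past both thresholds. Little can therefore be read from 0 calls among so few genes, here or in the lists below. The highest was ANOS1, which encodes anosmin of the extracellular matrix, at 6.47 ± 0.539 FPKM in shNT and 7.50 ± 0.391 FPKM in shGPR81 (SD, n = 3). WFDC3, in the chromosome 20 cluster, was at 2.53 ± 0.745 and 2.87 ± 0.663 FPKM, and WFDC10B, the nearest tested gene beyond WFDC2, at 0.436 ± 0.144 and 0.253 ± 0.252 FPKM.

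Other secreted antimicrobial proteins of epithelia were mostly not detected either, with 15 of 27 listed at 0 in all libraries, 8 tested and 0 called. ADM, which encodes adrenomedullin, a vasodilator peptide with antimicrobial activity, went from 13.7 ± 0.364 FPKM to 10.3 ± 0.525 FPKM (SD, n = 3). Its log2 fold change of -0.41 (SE 0.07, limma adjusted p = 0.0139) did not reach the threshold on the fold. The chemokine CCL28 was at 4.17 ± 0.429 and 3.09 ± 0.636 FPKM, not past the thresholds, and the shNT and shGPR81 levels of the ribonuclease ANG overlapped.

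Inhibitors of serine and cysteine proteases outside the WAP family moved in both directions. Of 29 measured, 17 were tested, 2 were lower and 3 were higher past both thresholds, where 1.59% and 0.955% of all tested genes were. SERPINB9, an intracellular inhibitor of granzyme B, fell from 4.81 ± 0.381 FPKM to 2.26 ± 0.0612 FPKM (SD, n = 3), a log2 fold change of -1.05 (SE 0.10, limma adjusted p = 0.00176). SPINT1, a Kunitz inhibitor of epithelial membrane proteases, fell from 4.51 ± 0.755 FPKM to 2.41 ± 0.377 FPKM, with -0.88 (SE 0.16, limma adjusted p = 0.0255). The call of SPINT1 was lost without a filter, with treat and when any library other than shNT 1 was left out.

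SERPINB2, which encodes plasminogen activator inhibitor 2, rose from 3.91 ± 0.514 FPKM to 8.54 ± 0.330 FPKM (SD, n = 3), a log2 fold change of 1.11 (SE 0.11, limma adjusted p = 0.00213). Of 2727 stretches of 75 bases in SERPINB2 transcripts, 475 also lie in transcripts of an overlapping gene. The salivary cystatin CST1 rose from 6.12 ± 0.541 to 12.1 ± 0.176 FPKM, with 0.97 (SE 0.08, limma adjusted p = 0.00123). CST4, from the same cystatin cluster on chromosome 20, rose from 7.89 ± 0.674 to 14.7 ± 1.14 FPKM, with 0.89 (SE 0.09, limma adjusted p = 0.00245). Both cystatins rose on a chromosome whose median was lower. Of 787 stretches of 75 bases in CST1 transcripts 94 also occur in CST2 or CST4, and 94 of 675 in CST4 transcripts in CST1 or CST2, so reads can be split between them and their separate values are uncertain. The most abundant inhibitors, CST3, SPINT2 and CSTB, did not pass the thresholds. CST3, cystatin C, was at 262 ± 45.6 FPKM in shNT and 260.5 ± 25.7 FPKM in shGPR81.

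The proteases that these inhibitors act on, or that act beside the 7 genes, gave 0 calls among 8 tested of 15 measured. Neutrophil elastase, ELANE, was listed at 0 in all 6 libraries. The most abundant were the cathepsins CTSB, at 59.8 ± 3.23 and 57.7 ± 3.63 FPKM (SD, n = 3), and CTSL, at 53.7 ± 3.29 and 60.8 ± 4.82 FPKM. PRSS3, a trypsinogen, was at 38.5 ± 6.35 and 37.5 ± 4.43 FPKM. Receptors and binding partners of the 7 proteins also gave 0 calls, among 7 tested of 13. The membrane-binding protein ANXA2, a partner of SLPI at the cell surface, was at 1372 ± 67.0 and 1433 ± 32.8 FPKM, the transferrin receptor TFRC at 153 ± 9.73 and 146 ± 3.34 FPKM and EGFR at 37.5 ± 2.01 and 35.8 ± 2.22 FPKM.

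Inducers and regulators of these genes were largely expressed, with 28 of 32 tested, and 2 fell past both thresholds, where 1.59% of all tested genes did. IL1R1, the receptor for interleukin-1, was at 0.897, 0.615 and 0.512 FPKM in shNT and at 0.0426, 0.0431 and 0 FPKM in shGPR81, without overlap between the groups. Its log2 fold change was -2.58 (SE 0.30, limma adjusted p = 0.00376). CEBPA, a C/EBP transcription factor of epithelial and myeloid cells, fell from 2.08 ± 0.212 FPKM to 0.930 ± 0.0808 FPKM (SD, n = 3), with -1.08 (SE 0.14, limma adjusted p = 0.00558). CEBPA had 211 reads in shNT and 99 in shGPR81, and 859 of its 2527 stretches of 75 bases also lie in transcripts of 2 overlapping genes. The most abundant regulators were HIF1A at 168 ± 7.98 and 163 ± 6.42 FPKM, the NF-kB subunit RELA at 43.4 ± 4.90 and 44.9 ± 2.98 FPKM and the TNF receptor TNFRSF1A at 40.3 ± 6.30 and 43.0 ± 1.37 FPKM, all with overlapping groups. Over the 6 lists with tested genes, 4 of 72 genes were lower and 3 higher past both thresholds, beside 1.59% and 0.955% of all tested genes. With treat, the test against the 1.5-fold limit, IL1R1 alone of these 7 genes was called. IL1R1 passed the filter on low values only through its shNT values. Its log2 fold change ran from -4.46 to -0.70 over the alternatives. For the 72 genes the median log2 fold change was -0.03, against 0.01 over all tested genes.

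**Figure D4:**
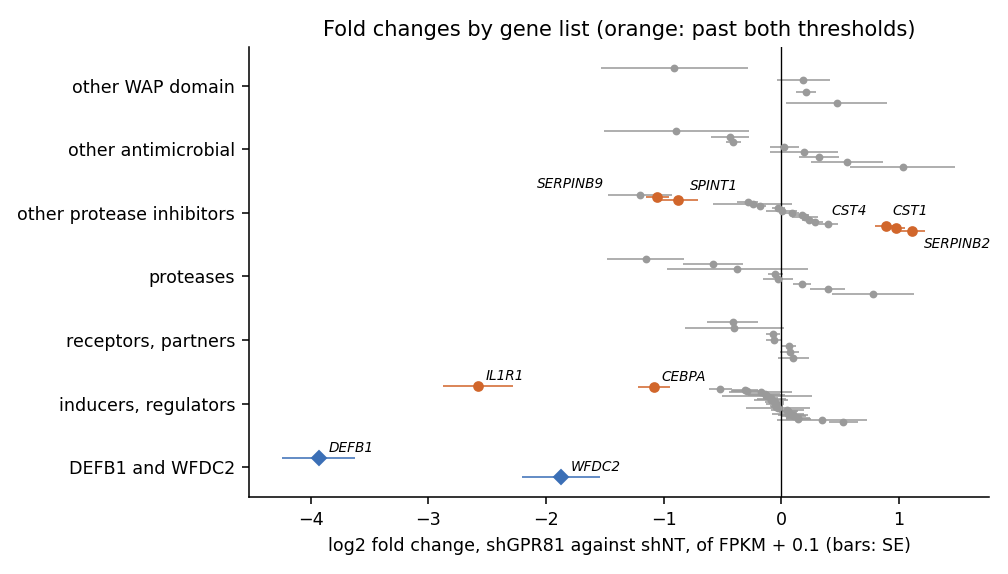
Log2 fold change of FPKM + 0.1, shGPR81 against shNT (horizontal axis, bars SE), of the tested genes of each list, with genes past both thresholds in orange and DEFB1 and WFDC2 in blue. The 4 lower genes (SERPINB9, SPINT1, IL1R1, CEBPA) and 3 higher genes (CST1, CST4, SERPINB2) are named, and most other genes lie close to 0.

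Markers of cell types gave 0 calls, among 4 neutrophil and myeloid, 12 luminal and 6 basal and mesenchymal markers tested. With 1.59% lower and 0.955% higher over all tested genes, little can be read from this. Of 16 neutrophil and myeloid markers 9, among them MPO, ELANE and ITGAM, were listed at 0 in all libraries. Their summed level of 79.5 to 103 FPKM in shNT and 113 to 131 FPKM in shGPR81 was nearly all CD68, a lysosomal protein. CD68 had a log2 fold change of 0.41 (SE 0.10) and CD14, the lipopolysaccharide co-receptor, one of -1.10 (SE 0.26), without overlap between the groups in either. Luminal markers summed to 456 to 583 FPKM in shNT and 483 to 556 FPKM in shGPR81, with KRT8, KRT18 and KRT19 at -0.25 (SE 0.11), -0.19 (SE 0.10) and 0.53 (SE 0.12) on the log2 fold change scale. Of the 16 luminal markers 3, CDH1, GRHL2 and ESR1, were listed at 0 in all libraries. Others were expressed, among them CLDN4, CLDN7 and EPCAM with shNT means of 33.4, 17.5 and 6.16 FPKM. Basal and mesenchymal markers summed to 3471 to 4204 FPKM in shNT and 4184 to 4679 FPKM in shGPR81, mostly VIM, at 0.22 (SE 0.10), with KRT5 and TWIST1 at 0. CD44 was at -0.20 (SE 0.05) and FN1 at -0.28 (SE 0.05). TP63 rose from 0.111 to 0.338 FPKM without overlap, at 1.05 (SE 0.24, limma adjusted p = 0.0575). The groups of ZEB1 and SNAI2, with shNT means of 17.4 and 8.23 FPKM, overlapped. KRT19 and FN1 had limma adjusted p of 0.045 and 0.0148 without reaching the threshold on the fold. The part of these markers in the fall of DEFB1 and WFDC2 was not tested.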

How the data were processed

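RNA of MDA-MB-231 cells was sequenced in 6 libraries, 3 shNT and 3 shGPR81, as single-end reads of 75 bases from stranded mRNA libraries. The authors deposited FPKM per gene symbol. Per the submitters' processing notes TopHat2 2.0.13, Bowtie2 2.2.3, SAMtools 0.1.19 and Cuffnorm 2.2.1 were used. The paper names the human build hg19 (GRCh37), while the labels name a mouse build, and the annotation is not given in the sources used here.

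The log2 of FPKM plus 0.1 was fitted with limma 3.58.1 (lmFit, eBayes with trend) in R 4.3.3. Genes entered if 3 or more of the 6 libraries reached 0.1 FPKM (14349 genes), with Benjamini-Hochberg adjustment over all of them. Such fold changes understate the change of low genes. Called genes had an adjusted p below 0.05 together with a change of more than 1.5-fold. Data were simulated for this comparison over 14148 genes. Of these, 86 of 100 genes changed 2-fold and 98 of 100 changed 4-fold were called, with 4 false calls. The changed genes were drawn only from those above a minimum mean level, so the lowest genes were not among them. The rates are not split by expression level either. They are therefore not read as the power for genes that rest on few reads. An exact permutation test of 3 against 3 libraries cannot go below 0.1 and was not used.

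Depth is not given with the FPKM. Reads were recovered as the smallest whole numbers whose steps give a gene's FPKM within 0.0001 (3590 of the 15931 genes above 0 in 3 or more libraries). They are not a count table, and no count test was run. Only the reads of DEFB1, SLPI, PI3 and WFDC2 were set against the line of FPKM per read. For other genes a step may hold several reads. Intervals are Clopper-Pearson at 95%, the floor is 3 reads over the group, and both cover counting error only. Coordinates are those of GENCODE 44 on GRCh37.

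The 7 genes and all lists were chosen with earlier results of these data known. Named are the 7 genes, HCAR1, the called genes and the 3 most abundant tested genes of each list, the nearest tested genes on each side of the 7 genes, and the 5 genes most like DEFB1, of which some are left out of the text and 1 is not reported here. TTPAL, CD40, SPATA25, GS1-24F4.2, MMP9, BPI, and the markers and genes at 0 named as such, were added after their values were seen. Alternatives were 3 other scalings, pseudocounts of 1 and 0.01, other filters, treat, a replicate block and leaving out each library.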

Additional observations from a re-analysis of the deposited data

How the results depend on the processing

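The direction of every fold change given for WFDC2, IL1R1, CEBPA, SERPINB9, SPINT1, SERPINB2, CST1 and CST4 was kept in all alternatives that gave a value. That of DEFB1 could not change, since its shGPR81 values were all listed at 0. DEFB1 was also chosen by its fall, so nothing is read from its direction or its calls in the alternatives. The size of the smallest genes depends on the pseudocount: with 1 FPKM in place of 0.1 the log2 fold change was -1.29 for DEFB1 and -0.88 for WFDC2, and with 0.01 it was -7.16 and -2.16. Fold changes near 0 changed sign in some settings without a call. STK4, SDC4 and PIGT were at 0.10, 0.12 and 0.11 after chromosome centring, and CST3 at -0.00027 with median centring and -0.0081 with quantile normalization. Without 1 library, the log2 fold change ran from -0.094 to 0.0025 for AGPAT5, from -0.15 to 0.10 for CST3, from -0.0404 to 0.12 for RELA, from -0.019 to 0.21 for TNFRSF1A, from -0.059 to 0.11 for ANG and from -0.14 to 0.094 for PRSS3. With a pseudocount of 1, 142 genes were lower and 75 higher past both thresholds, in place of 228 and 137. With treat in limma, a test against the 1.5-fold limit, these were 46 and 9, with 1 of the 7 genes (DEFB1) and 1 gene of the other lists (IL1R1). Chromosome centring left 1 of the 7 genes. Whether the same replicate numbers pair the libraries is not settled by their values. The correlations of same-numbered deviations were 0.147, 0.063 and -0.038, and those of the other pairs ran from -0.176 to 0.123. The highest was that of shNT 1 with shGPR81 1, while shNT 3 went best with shGPR81 2. With the replicate block 197 genes were lower and 115 higher, 1 of the 7 genes and 7 genes of the other lists passed. Leaving out 1 library in turn, over the same tested genes, gave 121 to 256 lower and 65 to 152 higher genes, 1 to 2 of the 7 genes and 6 to 8 genes of the other lists. Without shNT 2 there were 121 lower and 81 higher genes, without shGPR81 1 133 and 65, without shGPR81 2 135 and 66, and without shGPR81 3 169 and 85. The tolerance for whole reads, changed after the data were seen, gave reads for 3350 genes at 3e-05 and 3772 at 0.0002. Depth limits DEFB1, SLPI, PI3 and LTF most, since their values rest on a few reads.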

Other observations

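Among the lists, 2 further genes of chromosome 20 were read almost only in shNT. They were chosen after their values were seen and did not pass the thresholds, except MMP9 without a filter on low values. MMP9, the gelatinase that forms a complex with lipocalin-2, had 3, 5 and 5 reads in shNT and 1, 0 and 0 reads in shGPR81. The depth-corrected ratio was 0.0731, with a 95% Clopper-Pearson interval from 0.00172 to 0.486 for counting error only. Its log2 fold change was -1.15 (SE 0.33, limma adjusted p = 0.102, and 0.0349 without the filter). BPI, a secreted protein that binds bacterial lipopolysaccharide, had 3, 1 and 1 reads in shNT and 0 in each shGPR81 library. At the floor of 3 reads over the group it was at least 1.75-fold lower, but the 95% Clopper-Pearson interval of the ratio, from 0 to 1.04, includes no change, and it did not pass the filter on low values.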
